A study of Mus musculus with 3 samples.

Results

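Collagen genes were examined in astrocytes from the cerebral cortex of wild-type mice. The members were the rows whose gene symbol is Col, a number, the letter a and a number, which gave 42 of the 19471 genes in the table. The cells came from pups at postnatal day 1, the age that titles and age labels give although the names in the descriptions begin with P0, and spent 7 days in culture before RNA was taken, and poly(A) RNA was sequenced from 3 biological replicates, for which the labels give the wild-type genotype and no agent. Replicates 1, 2 and 3 came from pups 5, 6 and 8, and all belong to 1 group, so levels were compared between genes within a library and between libraries. The wider study concerns the histone variant H2BE in brain cells of different age and type. A further 2 annotated genes with such a symbol, Col25a1 and Col6a6, have no row and were not analysed here.

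Collagens are matrix proteins built from chains that wind into a triple helix, which needs glycine as the first residue of each repeated Gly-X-Y triplet. Fibrillar collagens assemble into fibrils, type IV collagens form the sheet of basement membranes, and FACIT collagens (fibril-associated collagens with interrupted triple helices) sit on the surface of fibrils. Others form beaded filaments or hexagonal networks, or span the cell membrane. In the brain, collagen is found mainly in the basement membranes of vessels and of the pial surface, and astrocyte endfeet face both.

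Collagen genes show their protein repeat in the lengths of their coding exons, and the exons below were printed to show it. In the GENCODE vM21 annotation (mm10), internal coding exons had a length divisible by 9 bases, which is 1 glycine-led triplet of codons, in 63.7% of 1848 exons of collagen genes, against 14.2% of 140551 exons of all protein-coding genes in the table. Exons of 54 bases made up 48.6% of those of the 11 fibrillar genes and 26.3% of those of the 9 FACIT genes, but 4.43% of those of the 8 basement membrane genes, where the share over all protein-coding genes was 0.733%. The short-chain network genes Col8a1, Col8a2 and Col10a1 had 0 internal coding exons. Each sequence was read from the GENCODE transcript and is the coding strand, 5′ to 3′, with the in-frame GGN codons for glycine in capitals. The first 4 are exons of 54 bases with 18 codons, and glycine opens each triplet of codons, as the selection of these exons required. The last 2 are the exons of 42 bases of Col4a1 and Col4a5, where the spacing between glycine codons is broken once. They are the first internal coding exons past the 10th that are under 100 bases long and no multiple of 9.
Col5a2, exon 6 of 54, chr1:45434892-45434945, minus strand: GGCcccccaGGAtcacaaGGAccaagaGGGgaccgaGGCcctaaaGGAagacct
Col11a1, exon 15 of 67, chr3:114108281-114108334, plus strand: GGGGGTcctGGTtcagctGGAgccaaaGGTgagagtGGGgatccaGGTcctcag
Col1a2, exon 8 of 52, chr6:4515481-4515534, plus strand: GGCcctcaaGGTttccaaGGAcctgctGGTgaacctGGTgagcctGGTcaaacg
Col22a1, exon 13 of 64, chr15:71952523-71952576, minus strand: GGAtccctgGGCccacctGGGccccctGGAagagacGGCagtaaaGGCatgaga
Col4a1, exon 12 of 52, chr8:11242173-11242214, minus strand: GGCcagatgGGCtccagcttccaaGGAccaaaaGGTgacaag
Col4a5, exon 12 of 53, chrX:141583187-141583228, plus strand: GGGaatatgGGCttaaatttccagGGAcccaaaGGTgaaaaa

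**Figure D1:**
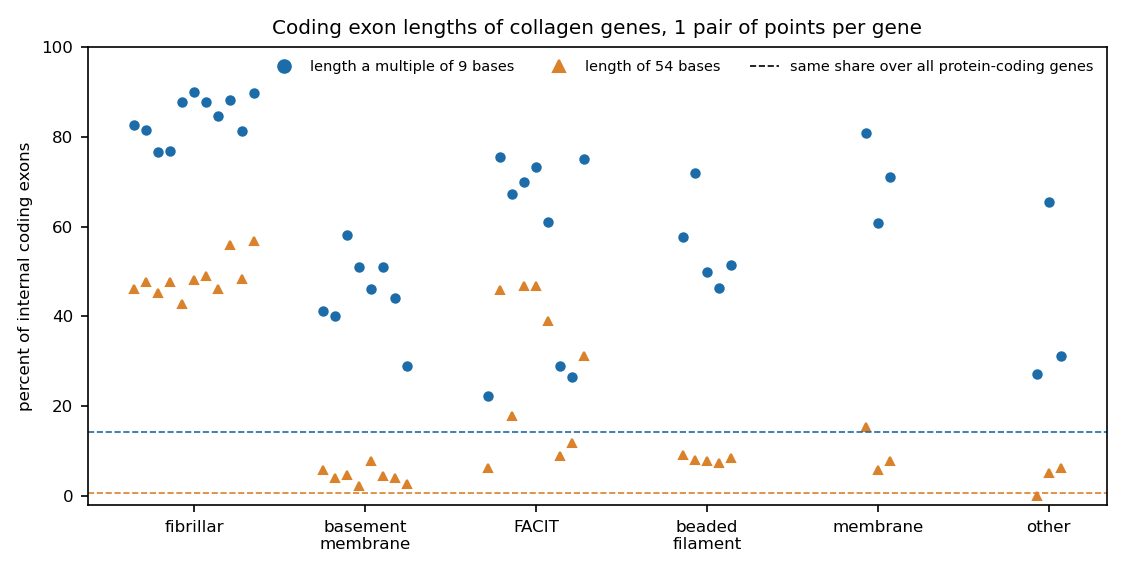
Share of internal coding exons (percent) whose length is a multiple of 9 bases (circles) or equals 54 bases (triangles), with 1 pair of points per collagen gene, grouped by class, and the share over all protein-coding genes as dashed lines. The 3 short-chain network genes have no such exon and no points. The 11 fibrillar genes lie between 42.9% and 56.9% for exons of 54 bases, above all 8 basement membrane genes.

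The collagen genes' share of all reads was 0.370% in replicate 1, with a 95% Wilson interval from 0.367% to 0.373%. Replicate 2 had 0.390%, with bounds of 0.388% and 0.393%, and replicate 3 had 0.375%, with bounds of 0.371% and 0.378%. This is a mean of 0.378% ± 0.0107 (SD, n = 3). The library totals were 14380993, 25128038 and 9858626 reads, and the intervals cover counting error only. Values below are the deposited normalized counts or, where genes are compared, those counts per kilobase of annotated exon. The mean over libraries reached 10 normalized counts in 35 of the 42 genes, 100 in 23 and 1000 in 13. The 5 genes with the most reads gave 58.3% of all collagen reads, and the 10 highest gave 83.3%.

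Each gene was set against the typical gene of its library, which is the median level per kilobase over 13902 genes, those of known exon length whose mean reached 10. That median was 71.0, 72.1 and 72.0 normalized counts per kilobase in replicates 1, 2 and 3. Of the 35 collagen genes tested, 15 (42.9%) were called above it by limma and 19 (54.3%) were called below, taking 0.05 as the limit for the adjusted p, and 1 was not called. The same test placed 45.5% of all genes above and 44.9% below, so the share above was near the background. The median log2 difference was -0.86 for the tested collagen genes, against -0.0056 for all tested genes. The p-values rest on a spread pooled over genes, and an exact sign-flip test of 1 gene over 3 libraries could not give a p below 0.25. The 7 genes with a mean under 10 were not tested.

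**Figure D2:**
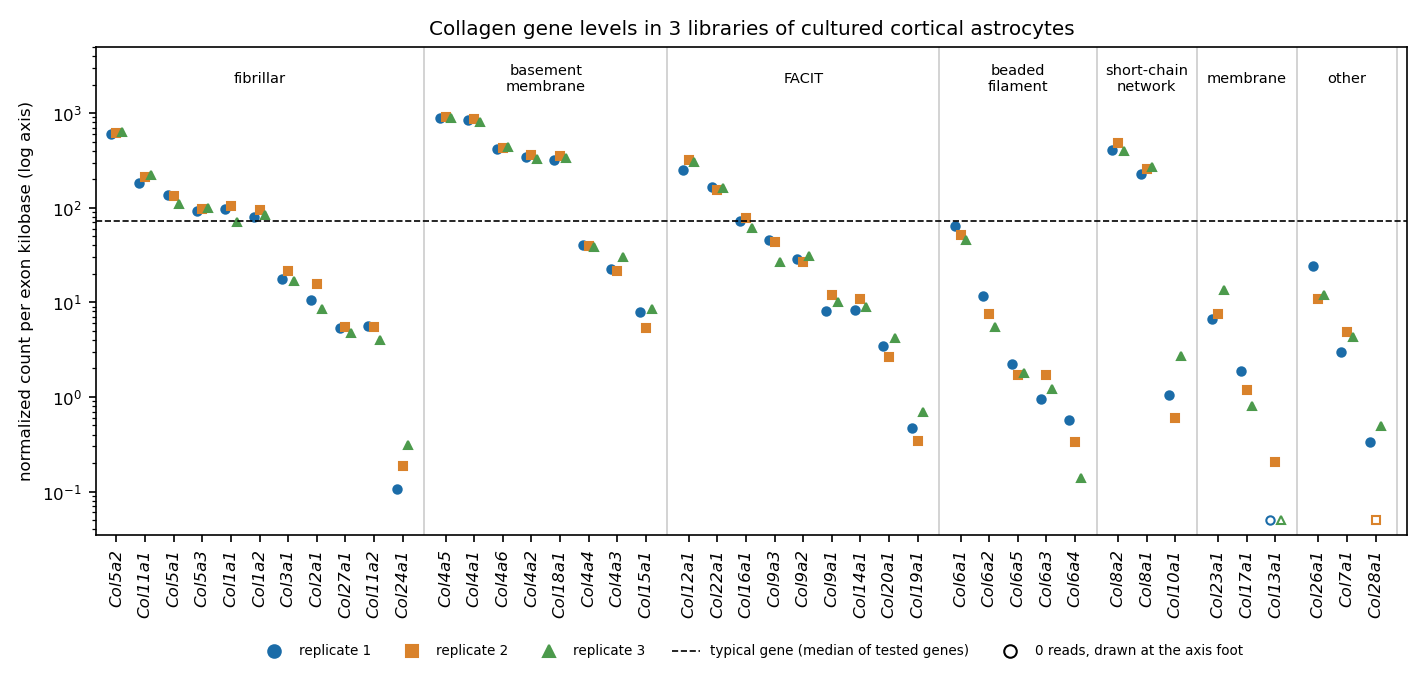
Normalized count per exon kilobase (log axis) of the 42 collagen genes in each of the 3 libraries, grouped by class and ordered by mean, with the typical gene of a library as a dashed line. Basement membrane, fibrillar and short-chain genes reach the highest levels, while the beaded filament and membrane genes lie below the dashed line in every library.

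Basement membrane genes were the most abundant class. Their 8 members summed to 2916 ± 74.0 normalized counts per kilobase (SD, n = 3), which was 52.4% ± 0.577 of the summed collagen level, and 5 of the 8 lay above the typical gene and 3 below it. Col4a5, whose chain is known from the kidney filter and is affected in human Alport syndrome, had the highest level of all collagen genes per kilobase of summed exons. Its normalized counts were 6029, 6174 and 5923 in replicates 1, 2 and 3. Per kilobase it averaged 899 ± 18.8, a log2 difference of 3.65 ± 0.070 (SE) from the typical gene (adjusted p = 1.23e-09, limma), or 12.5-fold. Col4a1, a chain of the most widespread type IV trimer, had normalized counts of 6265, 6509 and 6000, which was 838 ± 34.1 per kilobase and 11.7-fold above the typical gene. It lay below Col4a5 per kilobase in 3 of 3 libraries, but the order turned with the length used. The log2 difference from the typical gene was 3.27 for Col4a1 and 3.23 for Col4a5 with the longest transcripts, and 4.17 and 4.12 without division by length.

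The partner chains of both came next within the class. Col4a6, which assembles with Col4a5, had normalized counts of 3338, 3440 and 3457, or 428 ± 8.07 per kilobase. Col4a2, the partner of Col4a1, had 2264, 2395 and 2152, or 343 ± 18.4 per kilobase. Col18a1, a proteoglycan collagen whose end fragment is endostatin, had 2252, 2452 and 2377, or 336 ± 14.3 per kilobase. The levels of Col4a2 and Col18a1 overlapped, with Col4a2 higher in 2 of 3 libraries. The other 3 members lay below the typical gene. Col4a4 averaged 418 ± 8.65 normalized counts and Col4a3 246 ± 45.3, chains of the trimer known from the glomerulus and the cochlea. The log2 difference of Col4a4 from the typical gene was -0.86, but 0.27 without division by length. Col15a1, a proteoglycan collagen next to basement membranes of muscle and vessels, averaged 46.1 ± 10.6. Exons of Col4a3 overlap those of the antisense-strand gene C430014B12Rik over 5.65% of their length, and since the strand setting of the counting is not given here, those reads cannot be told apart.

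Col4a5 and Col4a6 lie on the X chromosome, and the libraries differed in Xist, the RNA of the inactive X, with 3000.5 normalized counts in replicate 1, against 0.472 and 4.78 in replicates 2 and 3. The spread of both genes did not pass the test against read sampling (adjusted p = 0.144 for Col4a5 and 0.576 for Col4a6, chi-square test). Their highest and lowest libraries differed 1.04-fold for each gene.

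The type IV genes stand head to head in pairs. The annotated starts of Col4a1 and Col4a2 on chromosome 8 are 21 bases apart, those of Col4a3 and Col4a4 on chromosome 1 are 72 bases apart, and those of Col4a5 and Col4a6 are 1309 bases apart. The 250 bases before the start of Col4a1 and of Col4a2 are shown as an example of such a pair. They come from the RefSeq table of build GRCm38.p6, in which 33 of the 42 members have an entry. Exons of Col4a1 and Col4a2 overlap by 22 bases, and each window lies within the annotated span of the other gene. Capitals mark matches on either strand to GGGCGG, known as the GC box, or to the shorter box that is named for its letters CCAAT, and no matches overlap in these windows.
Col4a1, chr8:11312827-11313076, minus strand: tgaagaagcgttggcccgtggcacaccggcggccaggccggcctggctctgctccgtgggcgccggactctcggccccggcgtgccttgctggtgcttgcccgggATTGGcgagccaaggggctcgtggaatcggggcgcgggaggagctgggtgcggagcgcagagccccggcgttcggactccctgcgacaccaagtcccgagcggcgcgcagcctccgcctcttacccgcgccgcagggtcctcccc
Col4a2, chr8:11312555-11312804, plus strand: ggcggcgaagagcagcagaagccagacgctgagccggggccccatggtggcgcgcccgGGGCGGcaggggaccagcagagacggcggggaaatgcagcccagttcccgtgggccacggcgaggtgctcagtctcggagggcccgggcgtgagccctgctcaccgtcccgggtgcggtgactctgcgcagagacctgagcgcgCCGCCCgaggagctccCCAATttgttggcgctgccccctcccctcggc
Each window held 1 CCAAT box, and the Col4a2 window held 2 GC boxes. Over the 36 promoter entries of collagen genes, 20 (55.6%) held a GC box and 12 (33.3%) a CCAAT box, against 32.7% and 33.8% of all 32851 promoters. Some of the 33 genes have more than 1 entry. The median share of G and C bases was 58.4% in the collagen windows and 52.4% in all promoters, and the box shares were not adjusted for it. A match is a run of letters and was not tested as a binding site.

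Among the fibrillar genes, Col5a2 and Col11a1 stood above the genes of types I, II and III per kilobase in 3 of 3 libraries. Col5a1 did so too, except that with the longest transcripts its log2 difference from the typical gene was 0.36, against 1.03 for Col1a2. The 11 members summed to 1258 ± 42.0 normalized counts per kilobase, 22.6% ± 0.0944 of the collagen level, and of the 10 tested 6 lay above the typical gene and 4 below. Col5a2, a chain of type V collagen, which nucleates fibrils and limits their width, had normalized counts of 5737, 5914 and 5990. At 613 ± 13.5 per kilobase it ranked 3 among all members, 8.55-fold above the typical gene. Col11a1, of type XI collagen, which nucleates the fibrils of cartilage, had 2333, 2715 and 2801, or 205 ± 19.6 per kilobase, and was lowest in replicate 1. Col5a1 had 1156, 1126 and 918, or 126 ± 15.2 per kilobase, with the lowest value in replicate 3. Col5a3 averaged 657 ± 22.4 normalized counts.

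The genes of type I collagen, the main fibril protein of bone, skin and meninges, lay within 1.24-fold of the typical gene per kilobase of summed exons. Col1a1 had normalized counts of 637, 683 and 458, and Col1a2 had 993, 1176 and 1048. Their log2 differences from the typical gene were 0.31 ± 0.12 (SE, adjusted p = 0.0368, limma) and 0.27 ± 0.088 (SE, adjusted p = 0.0197, limma). With the longest transcripts the values were 0.0053 for Col1a1 and 1.03 for Col1a2 (adjusted p = 0.968 and 3.02e-06, limma). Both calls also depended on the reference point: with genes of a mean of 100 or more alone, the differences were -0.29 and -0.34 (adjusted p = 0.0324 and 0.00378, limma). Leaving out replicate 2 ended both calls, at 0.21 for Col1a1 and 0.20 for Col1a2, and leaving out replicate 1 ended that of Col1a1, at 0.25. The difference of Col5a3, at 0.43 ± 0.081 (SE), changed sign to -0.18 with that stricter minimum, and that of Col5a1, at 0.80 ± 0.094 (SE), was 0.19 and no longer called.

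The remaining fibrillar genes lay below the typical gene. Col3a1, the partner of type I fibrils in vessels and skin, had normalized counts of 173, 209.9 and 166. Col2a1, the fibril gene of cartilage, had 98.4, 144 and 78.9. Col27a1 averaged 67.0 ± 5.24 and Col11a2 34.3 ± 5.93. Col24a1 rested on 1 to 3 reads per library.

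Of the 9 FACIT genes, 2 of the 8 tested lay above the typical gene, 5 below and 1 was not called. Together they summed to 612 ± 29.6 normalized counts per kilobase, or 10.99% ± 0.205 of the collagen level. Col12a1, which coats fibrils in tendon and fascia, had normalized counts of 3859, 4817 and 4597, or 291 ± 32.9 per kilobase. Col22a1, known from the junction of muscle and tendon, had 1528, 1419 and 1478, or 160.3 ± 5.95 per kilobase. Both stood above the typical gene in 3 of 3 libraries, 4.04-fold and 2.24-fold. Col16a1 averaged 476 ± 57.6 normalized counts and its log2 difference was -0.026 ± 0.0999 (SE, adjusted p = 0.808, limma).

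The type IX genes, whose product lies on cartilage fibrils, were low, with Col9a3 at 175, 166 and 104 normalized counts, Col9a2 at 88.7, 83.5 and 95.7 and Col9a1 at 40.7, 59.9 and 51.4. The values of Col9a3 include 234 exon bases, 6.07% of its length, that overlap Tcfl5 on the other strand. Col14a1, a relative of Col12a1, averaged 65.7 ± 9.44 normalized counts, which was 9.37 ± 1.35 per kilobase. Col20a1 averaged 17.7 ± 3.93 normalized counts, and Col19a1, with a mean of 3.47, was not tested.

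The short-chain network genes were represented by type VIII collagen, known from Descemet's membrane of the cornea and from vessel walls. Col8a2 had normalized counts of 1824, 2183 and 1797, or 431 ± 48.0 per kilobase, and Col8a1 had 1759, 2029 and 2133, or 252 ± 24.6. Col8a2 ranked 4 among all members by its mean per kilobase but was higher than the next, Col4a6, in 1 of 3 libraries. Both type VIII genes lay above the typical gene, 5.99-fold and 3.51-fold. Col10a1, the gene of growth-plate cartilage, had a mean of 4.504 and was not tested.

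Type VI collagen, a beaded filament of most connective tissues whose trimer holds the chains of Col6a1, Col6a2 and Col6a3 or a relative of Col6a3, was low and uneven. All 4 beaded filament genes tested lay below the typical gene, and the class gave 1.17% ± 0.247 of the collagen level. Col6a1 had normalized counts of 279, 226 and 197, Col6a2 had 96.8, 62.7 and 45.4, and Col6a3 had 11.4, 20.3 and 14.3. Col6a1 and Col6a2 were highest in replicate 1 and lowest in replicate 3, while Col6a3 was highest in replicate 2. Col6a5 averaged 17.98 ± 2.77, and Col6a4, with a mean of 2.97, was not tested. The call of Col6a1, at -0.43 ± 0.12 (SE), changed sign to 0.29 when genes with a mean of 1 or more set the typical level.

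Collagens that span the membrane were the lowest class, at 0.190% ± 0.0593 of the collagen level. Col23a1 had normalized counts of 38.2, 43.4 and 76.5. Col17a1, the hemidesmosome collagen of skin, averaged 7.75 ± 3.35. Col13a1, found at the neuromuscular junction, had 0 reads in replicates 1 and 3, which allows up to 3 reads or 2.44 and 3.59 normalized counts, and 2 reads in replicate 2. Of the 3 other genes, Col26a1 averaged 128 ± 59.9, Col7a1, the anchoring fibril gene of skin, 41.6 ± 9.60, and Col28a1 had 0 reads in replicate 2, which allows up to 1.42 normalized counts, and 2 reads in each of replicates 1 and 3.

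Chains that assemble in the same collagen were compared within each library, per exon kilobase, in 10 pairs. The p-values again rest on a spread pooled over genes, and all differences from 1 reference chain share the noise of that chain. They can therefore be much too small, and a sign-flip test of 1 pair over 3 libraries could not give a p below 0.25. In the pairs Col4a1 with Col4a2 and Col4a5 with Col4a6 the ratio was nearly constant over the 3 libraries. Whether such a ratio is steadier than that of genes that are not neighbours was not tested. The levels of Col4a5 and Col4a6 themselves varied little, with CVs of 2.09% and 1.88%. Col4a1 exceeded Col4a2 by 1.29, 1.27 and 1.31 on the log2 scale, an SD of 0.019 and a mean of 2.44-fold (SE 0.082, adjusted p = 4.97e-08, limma), where 95.7% of all genes differed from Col4a2 by the same test. Col4a5 exceeded Col4a6 by 1.10, 1.09 and 1.02, or 2.10-fold (SE 0.072, adjusted p = 7.42e-07, limma), where 96.6% of genes differed from Col4a6. Both differences held their direction and their call in 8 of 8 alternatives. The neighbours Col4a3 and Col4a4 were not among the pairs tested, and Col4a3 minus Col4a4 was -0.83, -0.87 and -0.37, an SD of 0.28.

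The pairs of type V and XI were less even. Col5a1 lay below Col5a2 by a log2 difference of -2.29 ± 0.099 (SE), or 4.90-fold, with values of -2.13, -2.22 and -2.53 (adjusted p = 3.48e-08, limma, 97.6% of genes different from Col5a2). Col11a1 exceeded Col11a2 by 5.004, 5.26 and 5.73, or 40.2-fold (SE 0.19, adjusted p = 9.33e-174, limma, 94.6% of genes different from Col11a2). Without division by length the fold between Col11a1 and Col11a2 was 74.6. In other tissues type XI trimers also take a type V chain or the type II chain.

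In type VI collagen Col6a1 exceeded Col6a2 by 2.44, 2.76 and 3.02, or 6.69-fold (SE 0.42, adjusted p = 8.69e-11, limma, 87.9% of genes different from Col6a2). Col6a3 lay below Col6a1 by -5.95, -4.86 and -5.14, or 39.9-fold (SE 0.35, adjusted p = 2.72e-52, limma, 84.5% of genes different from Col6a1). With the longest transcripts Col6a1 exceeded Col6a2 4.21-fold, and without division by length 3.52-fold, while Col6a3 lay 14.6-fold below Col6a1 without it. In type IX, Col9a1 lay below Col9a2 by -1.82, -1.18 and -1.59 (SE 0.19, adjusted p = 7.14e-10, limma, 91.4% of genes different from Col9a2), or 2.89-fold, against 1.77-fold without division by length. Col9a3 exceeded Col9a2 by 0.66 and 0.67 in replicates 1 and 2 but was at -0.20 in replicate 3, a mean of 0.38 ± 0.15 (SE, adjusted p = 0.019, limma). That last call ended without replicate 1, at 0.24 (adjusted p = 0.256, limma), and without replicate 2, at 0.23 (adjusted p = 0.216, limma).

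In types I and VIII the call itself depended on the length used. Col1a1 over Col1a2 was 0.28, 0.14 and -0.27 in the libraries, a mean of 0.049 ± 0.13 (SE, adjusted p = 0.724, limma, 89.7% of genes different from Col1a2). The annotated exons of Col1a2 add up to 12426 bases while its longest transcript has 5348, and with the longest transcripts the difference was -1.02 (adjusted p = 3.42e-14, limma). Col8a1 lay below Col8a2 by -0.77 ± 0.14 (SE, adjusted p = 5.05e-08, limma, 95.5% of genes different from Col8a2), but by -0.21 with the longest transcripts (adjusted p = 0.146, limma), and it was at 0.030 without division by length. Over the 8 alternatives the adjusted p in limma or edgeR ranged from 3.42e-14 to 0.977 for the type I pair, from 1.22e-06 to 0.256 for Col9a3 over Col9a2 and, for the type VIII pair, from 1.52e-08 to 0.826.

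**Figure D3:**
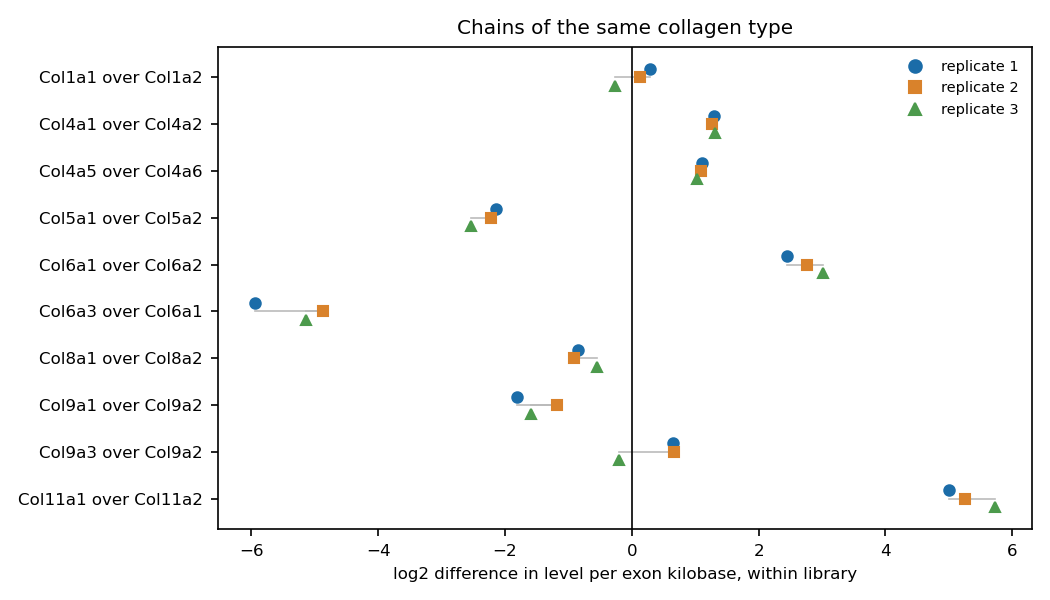
Log2 difference in level per exon kilobase between chains of the same collagen type, within each of the 3 libraries, with the first-named chain minus the second and a line joining the libraries. The points of Col4a1 over Col4a2 and of Col4a5 over Col4a6 nearly coincide, while those of Col9a3 over Col9a2 and of Col1a1 over Col1a2 fall on both sides of 0.

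Variation between the cultures was compared with read sampling gene by gene. The reads of 21 of the 35 collagen genes tested (60.0%) differed between libraries at an adjusted p under 0.05 (chi-square test), against 55.4% of all 13941 genes, a share near the background. The median SD of log2 values was 0.18 for these 35 genes and 0.16 for all genes tested. With 1 replicate left out, 12 to 13 members were called. Of the 21, 10 were highest in replicate 2, 6 in replicate 1 and 5 in replicate 3, while 11 were lowest in replicate 3. The same split was not counted over all varying genes, so it cannot be called particular to collagen genes.

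Among these 21 genes the widest spread was that of Col26a1, a small secreted collagen with short helical stretches, at 197 normalized counts in replicate 1, against 89.6 in replicate 2 and 96.9 in replicate 3. Its 2.20-fold range gave a log2 SD of 0.62, above that of 99.0% of the genes of similar mean, from 0.5 to 2 times its own. Col6a2 had a 2.13-fold range and Col23a1, highest in replicate 3, a 2.00-fold range. Col2a1 and Col9a3 followed with 1.83-fold and 1.68-fold. Each of these calls rested on 1 library: Col26a1 and Col6a2 were no longer called without replicate 1, Col2a1 without replicate 2, and Col23a1 and Col9a3 without replicate 3. The lowest CVs of the 35 genes were 1.88% for Col4a6, 2.07% for Col4a4, 2.09% for Col4a5 and 2.20% for Col5a2, with adjusted p between 0.144 and 0.800 in the chi-square test. Col4a1, the gene with the most reads, had a CV of 4.07% and varied beyond sampling (adjusted p = 8.86e-05, chi-square test).

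**Figure D4:**
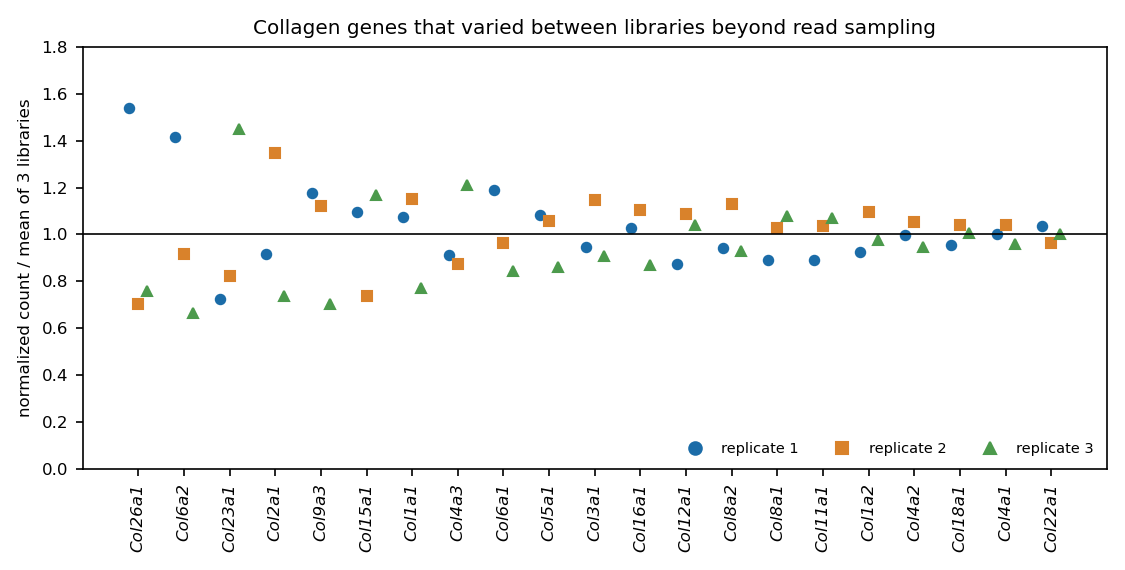
Normalized count divided by the mean of the 3 libraries for the 21 collagen genes that varied beyond read sampling, ordered by SD of log2 values. Col26a1 and Col6a2 are highest in replicate 1, and Col23a1 in replicate 3.

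Other cells of the cortex can enter such cultures, and their markers are given beside these values. Astrocyte markers prevailed, with 9 of 10 above the typical gene and Gfap, an intermediate filament gene, at 52283 ± 6679 normalized counts. Of the 17 fibroblast and meningeal markers, 16 have a row and 7 had a mean of 10 or more. Islr at 2691 ± 422, Ogn at 1658 ± 220 and Pdgfra at 390 ± 91.5 were the highest, while Dcn averaged 14.4 ± 3.07, and Lum (2.20), Crabp2 (1.65), Foxd1 (1.06) and Slc6a13 (0.954) were near 0. The list summed to 5312, 4986 and 4922 in replicates 1, 2 and 3, with Islr at 3109, 2265 and 2698. Of its 7 genes whose mean reached 10, 5 were highest in replicate 2, namely Ogn, Pdgfra, Fbln1, Foxc1 and Dcn, as were Col1a1, Col1a2 and Col3a1. Of the 10 astrocyte markers 7 were also highest in replicate 2, and of the 8 microglial markers 0. The share of all genes highest in replicate 2 was not counted. Of the 35 collagen genes tested, 9 had the falling order of replicates 2, 1 and 3, and 7 the order 2, 3 and 1. Mural markers included Acta2 at 48318 ± 806, Pdgfrb at 900.2 ± 99.2 and Notch3 at 581 ± 122. The sum of the list lay between 49579 and 50692, and Acta2 alone gave most of it in every library. Of the 6 mural markers tested, 2 lay above the typical gene, 1 was not called and 3 lay below. Those below were Cspg4 at 151, Rgs5 at 29.1 and Myh11 at 24.5. The pericyte genes Kcnj8 and Abcc9 averaged 1.01 and 0.586. Of the 10 endothelial markers 8 have a row and 3 reached a mean of 10, namely Kdr at 689.5 ± 59.6, Flt1 at 90.6 ± 18.9 and Cdh5 at 11.9 ± 3.16. Pecam1 averaged 5.43, and the list summed to between 773 and 859.

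Marker sums of other lists also differed between libraries. The 8 microglial markers all lay above the typical gene, where 45.5% of all genes lay above and 44.9% below. They summed to 23616, 18381 and 16057 in replicates 1 to 3, and 8 of 8 were highest in replicate 1. The same order of libraries was seen for 6 of the 35 collagen genes tested, Col4a4, Col5a1, Col6a1, Col6a2, Col9a3 and Col11a2. There are 6 possible orders, each held by 3 to 9 of the 35 genes, and the share over all genes was not counted. The spread of Col4a4 and Col11a2 did not pass the test against read sampling (adjusted p = 0.800 and 0.450, chi-square test). Csf1r, Ctss and C1qa, the highest by normalized count, averaged 5517 ± 1362, 4114 ± 482 and 3845 ± 936. The choroid plexus list summed to 788, 1182 and 744, with Folr1 at 382 ± 45.5 and Sostdc1 at 145 ± 14.5 among its highest. Its member Ttr had 31.7, 557 and 13.2. Of the 6 choroid plexus genes tested, 1 lay above the typical gene, 3 below and 2 were not called. Those below were Otx2 at 140, Aqp1 at 22.0 and Clic6 at 12.9, and Kl, at 2.74, was not tested. Without Ttr the list summed to 756, 626 and 731, lowest in replicate 2. The ependymal list was led by Foxj1, Rsph1 and Cfap44, at 9966 ± 1517, 827 ± 207 and 631 ± 175. It summed to 14091, 10375 and 12008, with 4 of 6 genes highest in replicate 1 and 2 in replicate 3. Of these 6 genes, 3 lay above the typical gene, Dnah5 and Tmem212 lay below, and Cfap44 was not called. Of the 35 collagen genes tested, 3 had the order of libraries of the ependymal sum, Col6a5, Col22a1 and Col26a1. The spread of Col6a5 did not pass the test against read sampling (adjusted p = 0.587, chi-square test). The oligodendrocyte lineage genes Olig1 and Olig2 averaged 5896 ± 1027 and 1240 ± 102. Of the 5 genes of that list tested, 2 lay above the typical gene and 3 below. The neuronal list, led by Stmn2, Syt1 and Tubb3 at 669 ± 129, 167 ± 114 and 157 ± 35.9, summed to between 765 and 1173, with Snap25 at 2.51 and Slc17a7 at 0.786. The part of these cells in the collagen values was not tested. In bulk RNA, fewer cells of a type and less RNA per cell cannot be told apart.

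Genes that modify, fold and export collagen chains were mostly above the typical gene. Of 15 genes for prolyl and lysyl modification, 12 lay above and 2 below, where 45.5% and 44.9% of all genes did, and the list median was 1.68 on the log2 scale. P4hb, the disulfide isomerase that is also a subunit of prolyl hydroxylase, averaged 6893 ± 344 normalized counts, and the catalytic subunit genes P4ha1 and P4ha3 averaged 2315 ± 302 and 2224 ± 340. P4ha2, the third catalytic subunit gene, stood at 124 ± 12.3 and lay below the typical gene, as did Colgalt2, a collagen galactosyltransferase gene, at 193 ± 30.2. Of 10 folding and export genes, 6 lay above and 1 below, with a median of 0.91. Serpinh1, the collagen chaperone HSP47, averaged 8487 ± 702, or 3474 normalized counts per kilobase, the vesicle coat gene Sec24d at 1474 ± 64.3 and the peptidyl-prolyl isomerase gene Fkbp10 at 1165 ± 56.0.

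Genes acting on collagen outside the cell were more mixed. Of the 7 tested for propeptide removal, from 9 with a row, 1 lay above and 5 below, and the median was -2.13. Bmp1, which cuts the C-propeptide of fibrillar collagens, averaged 1857 ± 151, its enhancer Pcolce 271 ± 48.7 and Adamts14, an N-propeptidase, 159 ± 15.0. Of 6 crosslinking genes, 4 lay above and 2 below, with a median of 0.56. The peroxidase gene Pxdn, which crosslinks type IV collagen, averaged 806 ± 54.8, Loxl2 805 ± 129 and Loxl1 773 ± 51.4, while the lysyl oxidase gene Lox averaged 87.6 ± 13.9 and lay below the typical gene. Of the 8 collagen receptor genes tested, from 9 with a row, 3 lay above and 5 below, with a median of -0.68. The receptor tyrosine kinase gene Ddr1 averaged 16432 ± 1537, the integrin gene Itgb1, which pairs with many alpha chains, 8906 ± 1116, and Ddr2, which binds fibrillar collagens, 1543 ± 237. The alpha subunit genes tested all lay below the typical gene, with Itga1, which favours type IV collagen, at 949 ± 111, Itga2 at 98.9 ± 5.41 and Itga11 at 17.6 ± 6.30.

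**Figure D5:**
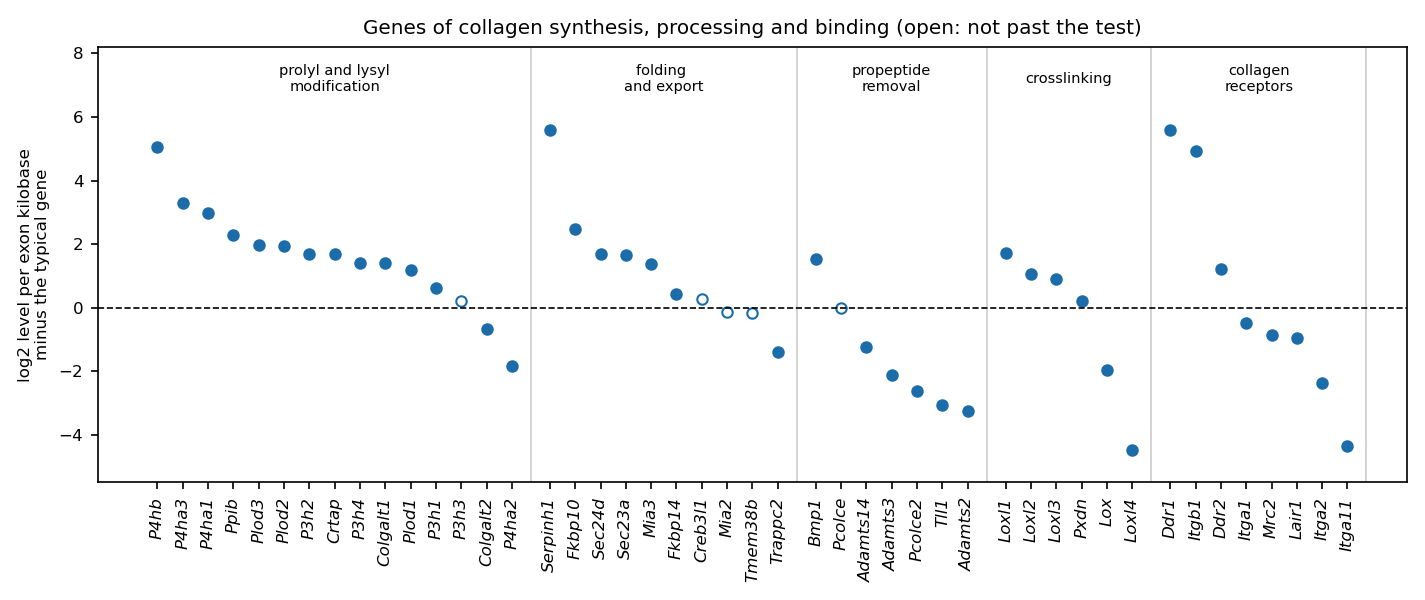
Mean log2 level per exon kilobase minus the typical gene of the library (dashed line at 0) for genes of collagen modification, export, processing, crosslinking and binding with a mean of 10 or more, where open points did not pass the limma test. Most modification genes lie above 0, and most propeptide removal genes lie below it.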

How the data were processed

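Poly(A) RNA was isolated with a column kit and made into stranded libraries, per the labels' protocols. The deposited table holds a signal per gene, a read count that the authors divided by a size factor per library with DESeq2 on build mm10, per the submitters' processing notes. No source used here names the aligner, the counter, its strand setting or the annotation. The authors' mean column was not used in tests. Values were whole multiples of 1 read (0.813, 0.472 and 1.20 normalized counts in replicates 1, 2 and 3), and dividing by these gave whole reads for 100% of values within 0.05 reads. The labels call the replicates biological, and differences between animals cannot be told apart from those between cultures or library preparations.

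Exon lengths came from GENCODE vM21 (mm10), which held 19372 (99.5%) of the gene identifiers. Levels were log2((normalized count + 1) / exon kilobases), so folds of low genes are understated. The level test was an intercept-only limma fit with a trended prior over 13902 genes, and the pair test was the same fit on differences from the partner chain, over 13901 genes, both two-sided. The chi-square test took expected reads from library totals, for genes whose mean reached 10 and whose reads summed to 30 or above. Benjamini-Hochberg adjustment ran over all genes tested. As an alternative, edgeR's quasi-likelihood test on the recovered reads called 6378 genes above and 6234 below, against 6324 and 6241 in limma. Both fits and the chi-square test were run on simulated data. There the pair fit called 71.6% of genes set 1.5-fold above the reference, and 100% of those set at 3-fold or 0.333-fold. No genes were set at the level of the reference, so the rate of false calls of the pair fit is not known.

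Of the 42 members, 33 shared no stretch of 50 bases with another annotated gene, and the highest share was 3.42% (Col6a5). Exons of 12 members overlap another gene. All members could be named, each pathway or marker list by its 3 highest genes, and any further gene after its values were known, as were the orders of libraries, the list sum without Ttr and the values of Col4a3 minus Col4a4. Members and lists were chosen with earlier results of these data known. List genes without a row were not analysed here, and 1 further list gene is not reported here. Python 3.11.15, numpy 2.4.6, pandas 2.3.3, SciPy 1.17.1, matplotlib 3.10.9, R 4.3.3, limma 3.58.1 and edgeR 4.0.16 were used.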

Additional observations from a re-analysis of the deposited data

How the results depend on the processing

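Over the 11 alternatives, 11 to 17 members lay above the typical gene and 10 to 22 below, where 10 below is the value with a minimum mean of 100, at which 23 members were tested. Of 373 member values under an alternative, 354 kept their direction and their side of the threshold, and 19 did not. A changed minimum mean moves the typical gene itself, which shifts every log2 difference from it by the same amount. For the other alternatives the cause was not tested. The log2 difference from the typical gene changed sign at a minimum mean of 100 for Col5a3 (-0.18), Col1a1 (-0.29) and Col1a2 (-0.34), at a minimum mean of 1 for Col16a1 (0.70) and Col6a1 (0.29), without division by length for Col16a1 (0.46) and Col4a4 (0.27), and with 1 replicate left out for Col16a1 (-0.099 to 0.075, the highest without replicate 3). With 1 replicate left out there were 12 to 13 members and 4958 to 5415 of all genes varying between libraries, fewer than with 3 libraries. Among the chain pairs, Col1a1 over Col1a2 was -0.87 without length, -1.02 with the longest transcripts and -0.067 to 0.21 with 1 replicate left out. Col8a1 over Col8a2 was 0.030 without length and -0.21 with the longest transcripts, and Col9a3 over Col9a2 was 0.23 to 0.66 with 1 replicate left out. The other 7 pairs kept direction and call in 8 of 8 alternatives. The collagen share was 0.172% when summed per exon kilobase. No paired analysis was possible because there is 1 group. The 7 members with a mean under 10 had too few reads to be tested.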
